A study of Homo sapiens with 4 samples.

Results

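Transcript levels of 36 genes of the cell death machinery, the BCL2 family, caspases, death receptors and their direct partners, were read in SKOV3 and ES2, established human ovarian cancer cell lines, with and without YY-15. The members were the rows of the deposited table whose gene name was on a list, 36 of 38558 genes, and each name matched 1 row. That list was chosen with earlier results of these data known, so shares of members set against all genes below are descriptive. The table held 4 libraries of poly(A)-selected RNA, 1 per group, and both lines are labelled wild type. The ES2 control and SKOV3 control cells are labelled control with no vehicle named, and are called untreated below. The ES2 YY-15 and SKOV3 YY-15 cells received YY-15, a compound known here by its code name only, for 48 h, at 4 µM by the column headings. With 1 library per group, no difference below has a replicate check, a test or a p-value, and the labels do not say whether a library came from 1 culture or several. In RNA from whole cultures, fewer cells of a kind and less RNA per cell cannot be told apart.

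The mitochondrial route to apoptosis is decided by contacts within the BCL2 family. Guardian proteins such as MCL1 and BCL2L1 hold back the effectors BAX and BAK1, which otherwise open the outer mitochondrial membrane, and BH3-only proteins such as PMAIP1 and BBC3 occupy the guardians or activate the effectors. Cytochrome c then assembles with APAF1 and activates CASP9, while DIABLO and HTRA2 relieve the block that XIAP puts on caspases. Death receptors at the cell surface act from outside through FADD and CASP8, with CFLAR as a brake, and CASP8 can cleave BID to join the routes.

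The libraries held 62522202 to 67431058 counts, of which the members took 0.194% to 0.259%. Values are FPKM, which scale the fragments of a gene by transcript length and by library size, so levels of different genes can be set side by side. A ratio is log2((YY-15 FPKM + 1)/(control FPKM + 1)), and a 2-fold difference is a ratio of 1 or more in size. The pseudocount of 1 understates the difference of genes with low FPKM. A gene was compared where it reached 1 FPKM in at least 1 of the libraries compared. Brackets hold exact Clopper-Pearson 95% intervals of the log2 ratio of the counts, each as a share of its library and without the pseudocount, so an interval can lie outside the ratio printed before it. They cover counting error only and not the spread between cultures. The lines are labelled epithelial, and KRT7 stood at 101 to 153 and KRT18 at 97.7 to 112 FPKM over the 4 libraries. EPCAM and CDH1 were listed at 0 in both ES2 libraries and reached at most 1.15 and 0.547 FPKM in SKOV3, while the ovarian lineage gene PAX8 was at 37.5 and 43.8 FPKM in SKOV3 and at most 0.119 in ES2. PTPRC and CD14, blood cell markers, were at 0.146 FPKM or less in each library. CDH5, an endothelial cadherin gene, was at 19.5 and 16.3 FPKM in ES2, where PECAM1 and VWF were at 0.0501 or less. Of the 5 epithelial markers compared in SKOV3, KRT8 was 2-fold lower with YY-15 (247 and 116 FPKM) and 1, EPCAM, was higher (0.29). Of the 4 mesenchymal markers, FN1 was 2-fold higher (169.9 and 342 FPKM), ZEB1 had a ratio of 0.60, CDH2 one of 0.10 and VIM, at 782 and 754 FPKM, one of -0.05. The part of these in the results below was not tested.

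Whether YY-15 altered expression in SKOV3 was the first question. The members furthest from 0 were BH3-only genes, TRAIL receptor genes and the guardian genes BCL2L1 and BCL2A1, all with more transcript in the YY-15 library. Of the 32 members compared, 2 were at least 2-fold higher, PMAIP1 and BBC3, or 6.25% of them, against 1.66% of all 13294 genes compared. None was 2-fold lower, against 1.31% of all genes. At a size of 1.5-fold, 8 members (25.0%) were higher against 6.89% of all genes, and 0 were lower against 5.69%. That count of 0 rests on the pseudocount of 1: RIPK1 (1.59-fold) and CASP2 (1.56-fold) were over 1.5-fold lower in FPKM without it. The 8 were PMAIP1, BBC3, TNFRSF10B, BCL2A1, BCL2L1, TNFRSF10A, BIK and BMF. The median ratio was 0.15 over the members compared and 0.02 over all genes. BCL2, HRK, CASP1 and FAS did not reach 1 FPKM in SKOV3 and are outside these counts. BCL2A1 and CASP10 reached it through the YY-15 library alone, so the filter could only admit them as higher. The plot of ratios by gene sets both lines side by side.

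**Figure D1:**
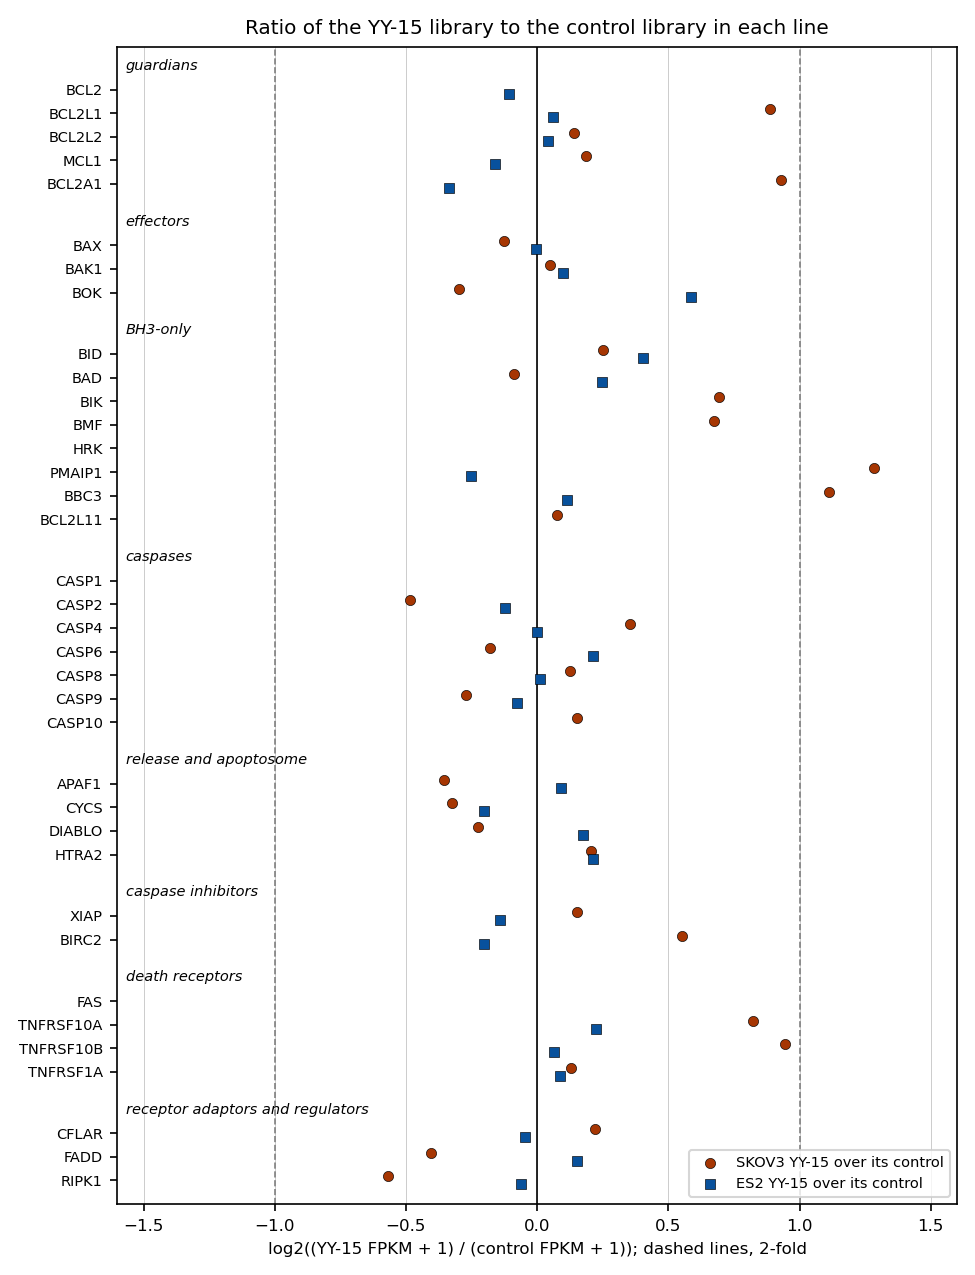
Ratio of the YY-15 library to the control library of the same line, as log2 of FPKM + 1, for each gene by role, with circles for SKOV3 and squares for ES2. Dashed lines mark 2-fold, and genes under 1 FPKM in both libraries of a line have no point. PMAIP1 (1.28) and BBC3 (1.11) in SKOV3 are the points beyond a dashed line, and BOK (0.59) is the ES2 point furthest from 0.

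**Figure D2:**
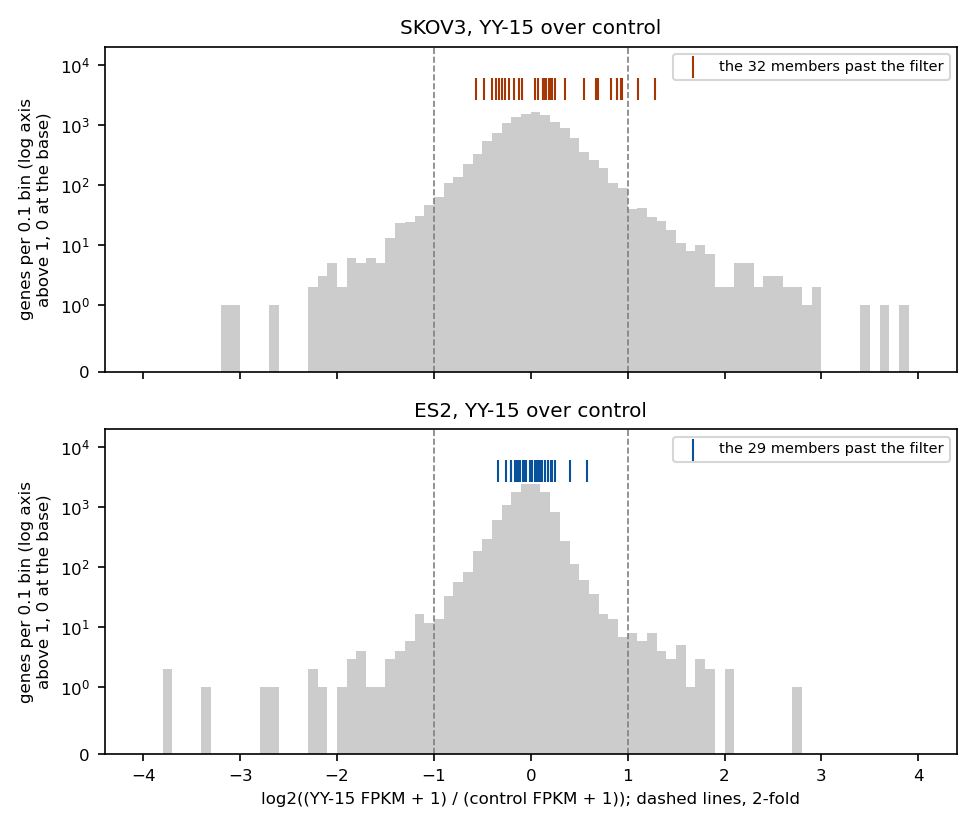
Number of genes per 0.1-wide bin of the log2 ratio, in SKOV3 (13294 genes, upper panel) and ES2 (12341 genes, lower panel), on an axis that is logarithmic above 1. Coloured ticks are the members compared, which run from -0.57 to 1.28 in SKOV3 and from -0.34 to 0.59 in ES2.

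PMAIP1 encodes NOXA, a BH3-only protein that binds MCL1. It stood at 23.8 FPKM in control SKOV3 cells and 59.4 after YY-15, and at 22.3 and 18.6 in ES2, control first. The SKOV3 YY-15 library was thus high, the other 3 libraries lying between 18.6 and 23.8 FPKM. Its ratio in SKOV3 was 1.28 [1.27 to 1.38], the 116th highest of all genes compared. The gene (ENSG00000141682) is protein-coding and lies on chromosome 18 at 59899996 to 59904305, GRCh38, plus strand. BBC3 encodes PUMA, which binds all the main guardians (ENSG00000105327, protein-coding, chromosome 19, 47220822 to 47232766, minus strand). Its level was 1.84 FPKM in control SKOV3 cells and 5.14 after YY-15, and 1.04 and 1.20 in ES2. The SKOV3 ratio was 1.11 [1.32 to 1.65], from 420 and 1090 counts. With a pseudocount of 5 it was 0.57, under 2-fold.

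The promoter windows of PMAIP1, BBC3 and BCL2A1 are shown. PMAIP1 and BBC3 passed 2-fold in SKOV3, and PMAIP1 and BCL2A1 in the difference between the lines' ratios. Each window runs from 250 bases before the RefSeq gene start through the first 50 bases of the gene, GRCh38.p14, read along the gene's strand. They are chr18:59899746-59900045 (plus), chr19:47232618-47232917 (minus) and chr15:79971147-79971446 (minus). Capitals mark matches to the motifs searched on both strands.
PMAIP1: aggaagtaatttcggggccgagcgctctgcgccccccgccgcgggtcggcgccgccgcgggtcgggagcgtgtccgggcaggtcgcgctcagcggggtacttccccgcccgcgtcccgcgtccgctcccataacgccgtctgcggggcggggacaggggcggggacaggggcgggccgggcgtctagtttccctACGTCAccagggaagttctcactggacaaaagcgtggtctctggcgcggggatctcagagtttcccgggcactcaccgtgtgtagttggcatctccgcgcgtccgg
BBC3: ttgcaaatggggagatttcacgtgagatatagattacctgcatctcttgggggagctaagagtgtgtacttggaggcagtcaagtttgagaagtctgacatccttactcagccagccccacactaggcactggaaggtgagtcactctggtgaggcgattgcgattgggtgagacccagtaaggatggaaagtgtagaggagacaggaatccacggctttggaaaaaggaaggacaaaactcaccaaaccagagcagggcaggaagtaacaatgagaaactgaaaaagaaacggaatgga
BCL2A1: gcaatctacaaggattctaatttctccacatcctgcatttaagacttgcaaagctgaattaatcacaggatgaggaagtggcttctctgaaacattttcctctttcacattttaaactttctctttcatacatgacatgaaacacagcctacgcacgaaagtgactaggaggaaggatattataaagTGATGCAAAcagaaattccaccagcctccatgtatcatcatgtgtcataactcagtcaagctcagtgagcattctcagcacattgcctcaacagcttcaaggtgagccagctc
The core of the composite element bound by ATF4 and CHOP, searched as TGATGNAAN, matched in the BCL2A1 window, at bases 188 to 196, and in 3.61% of 35116 promoter windows. The full cyclic AMP response element, TGACGTCA, was in none of the 3 windows shown and in 1.85% of all. Its left part, TGACGT, which was added to the search after the windows were read and which the full element contains, matched the minus strand of the PMAIP1 window at bases 195 to 200, and 7.98% of all windows. Windows were found for 29 members, 54 windows in all. Of these, the composite core was in 2 (HRK and BCL2A1) and the full element in 2, both of BIRC2. The left part was in 7, of PMAIP1, CYCS, BAD, BIRC2 and XIAP. In SKOV3 YY-15, PMAIP1, BIRC2 and XIAP had more transcript and CYCS less, while the BAD interval, -0.17 to 0.004, included 0. A match describes these letters only, and no binding was measured.

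The other BH3-only genes had smaller differences. BMF, a sensor linked to the cytoskeleton, was at 7.92 FPKM in control SKOV3 cells and 13.2 after YY-15, a ratio of 0.68 [0.68 to 0.81], and at 0.526 and 0.517 in ES2. BIK, which acts at the endoplasmic reticulum, was at 2.40 and 4.51 FPKM in SKOV3, a ratio of 0.69 [0.62 to 1.19], and had 0 counts in both ES2 libraries. Both genes therefore stood highest in SKOV3 YY-15 and near or at 0 in ES2. HRK was at 0.0725 and 0.126 FPKM in SKOV3 (36 and 58 counts) and at 0 counts in ES2. BID, the link from death receptors to mitochondria, had a ratio of 0.25 in SKOV3 and 0.40 in ES2. BCL2L11, which encodes BIM, was at 1.54 and 1.68 FPKM in SKOV3, with an interval of -0.02 to 0.27 that includes 0. BAD, which binds BCL2L1, had a SKOV3 ratio of -0.09. BAD lies opposite GPR137 and BCL2L11 opposite MIR4435-2HG, which carried 85.7% to 109% and 174% to 736% of their counts, so both values are uncertain.

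Among the guardians, BCL2L1, which encodes BCL-XL (ENSG00000171552, chromosome 20, 31664452 to 31723989), had the largest difference in FPKM. It was at 41.7 FPKM in control SKOV3 cells and 77.9 after YY-15, and at 17.8 and 18.6 in ES2. Both SKOV3 libraries were above both ES2 libraries, and SKOV3 YY-15 was the highest of all. The SKOV3 ratio was 0.89 [0.88 to 0.94]. MCL1, a guardian whose protein turns over fast, was at 54.2 and 61.7 FPKM in SKOV3 and at 71.5 and 63.9 in ES2, in each case control first. Its ratio was 0.18 [0.17 to 0.22] in SKOV3 and -0.16 [-0.18 to -0.14] in ES2. BCL2A1, an NF-kB target that encodes BFL1, was at 0.200 FPKM in control SKOV3 cells and 1.29 after YY-15, on 15 and 86 counts. The SKOV3 ratio of 0.93 has a wide interval [1.83 to 3.53], and the same gene was at 28.2 and 22.1 FPKM in ES2. BCL2L2, at 5.90 and 6.60 FPKM in SKOV3, had a ratio of 0.14. It shares its strand and place with the read-through gene BCL2L2-PABPN1, whose counts came to between 26.8% and 33.8% of its own, so its value is uncertain. BCL2 itself was low, at 0.318 and 0.430 FPKM in SKOV3 and 1.09 and 0.943 in ES2.

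In SKOV3 the effector genes differed little. BAX was at 9.89 FPKM in the control and 8.98 with YY-15, BAK1 at 22.4 and 23.2. BOK, an effector relative that is also tied to the endoplasmic reticulum, was at 31.0 and 25.0. Their ratios were -0.13, 0.05 and -0.30. The BAK1 interval, -0.01 to 0.12, includes 0.

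Both TRAIL receptor genes had more transcript in the SKOV3 YY-15 library. TNFRSF10B, which encodes the receptor DR5 (ENSG00000120889, chromosome 8, 23020133 to 23069031), was at 29.9 FPKM in control SKOV3 cells and 58.5 after YY-15, and at 16.5 and 17.3 in ES2. Its SKOV3 ratio was 0.95 [0.94 to 1.01], just under 2-fold. TNFRSF10A, which encodes DR4 (ENSG00000104689, chromosome 8, 23190452 to 23225102), was at 3.11 and 6.28 FPKM in SKOV3 and at 5.27 and 6.32 in ES2. The SKOV3 control library was the low one, and the remaining 3 lay between 5.27 and 6.32. Its ratio of 0.82 [0.88 to 1.16] corresponds to 2.02-fold in FPKM without the pseudocount. When each library was rescaled to the same FPKM sum, both receptor genes passed 2-fold. TNFRSF10B lies opposite RHOBTB2, whose counts were 31.0% of its own in the SKOV3 control library and 12.2% with YY-15. TNFRSF10A lies opposite TNFRSF10A-DT, at 17.2% and 17.8%, and TNFRSF10A-AS1, at 5.83% and 6.78%, so both receptor values are uncertain. The library kit marks strand, but no source used here states if reads were assigned by it. TNFRSF1A, the main TNF receptor gene, was at 25.1 and 27.5 FPKM in SKOV3, a ratio of 0.13. FAS was under 1 FPKM in all 4 libraries, although it had 375 to 853 counts, since its FPKM rest on a length 7.40 times its GENCODE 29 exon length. Its log2 ratio of library shares was 0.65 [0.50 to 0.81] in SKOV3 and -0.41 [-0.61 to -0.22] in ES2. The FAS value is uncertain because the gene overlaps STAMBPL1 on the same strand, whose counts were 38.8% to 43.8% of its own in SKOV3 and 376% to 459% in ES2.

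Of the 3 adaptor and regulator genes downstream of the receptors, 2 had less transcript in SKOV3 YY-15. RIPK1, a kinase that passes TNF receptor signals on, was at 7.26 FPKM in the control and 4.57 with YY-15, a ratio of -0.57 [-0.72 to -0.60], the lowest of the members compared. FADD, the adaptor that recruits CASP8, was at 25.5 and 19.0 FPKM, a ratio of -0.40 [-0.50 to -0.34]. CFLAR, the caspase-like brake, was at 3.39 and 4.12 FPKM, a ratio of 0.22 [0.23 to 0.34]. Without the pseudocount the FPKM of RIPK1 were 1.59-fold lower. The FPKM of RIPK1 rest on a length 3.06 times its GENCODE 29 exon length, which lowers its level beside other genes but not its share ratio.

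The 6 caspase genes compared had SKOV3 ratios from -0.48 to 0.35, 3 above and 3 below 0. CASP2, an initiator caspase tied to the DNA damage response, was at 3.87 FPKM in control SKOV3 cells and 2.49 after YY-15, which is 1.56-fold lower without the pseudocount. The inflammatory caspase gene CASP4 was at 4.29 and 5.76. CASP9, which the apoptosome activates, had a ratio of -0.27 and CASP6, an executioner, one of -0.18. CASP8 was at 0.13 and CASP10, its relative, at 0.15. CASP1, which processes interleukin-1 beta, was at 0.574 FPKM or less in all 4 libraries.

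Of the genes for proteins released from mitochondria and for the apoptosome, 3 of 4 had less transcript in SKOV3 YY-15: APAF1 (ratio -0.35 [-0.59 to -0.38]), CYCS, which encodes cytochrome c (10.1 and 7.88 FPKM, -0.32), and DIABLO (-0.22). HTRA2 was at 0.20. HTRA2 lies opposite AUP1 and DIABLO opposite B3GNT4, and CASP6 above lies opposite MCUB, so these 3 values are uncertain too. APAF1 lies opposite ANKS1B, whose counts were 8.58% of its own in the SKOV3 control library and 11.7% with YY-15. The APAF1 value is therefore uncertain as well. The table held 13 genes named as CYCS pseudogene copies, and their summed counts came to 0.459% to 1.48% of the counts of CYCS. BIRC2, a ubiquitin ligase of the TNF receptor complex, was at 43.0 FPKM in control SKOV3 cells and 63.5 after YY-15, a ratio of 0.55 [0.54 to 0.60], and at 43.0 and 37.2 in ES2. XIAP had a ratio of 0.15.

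**Figure D3:**
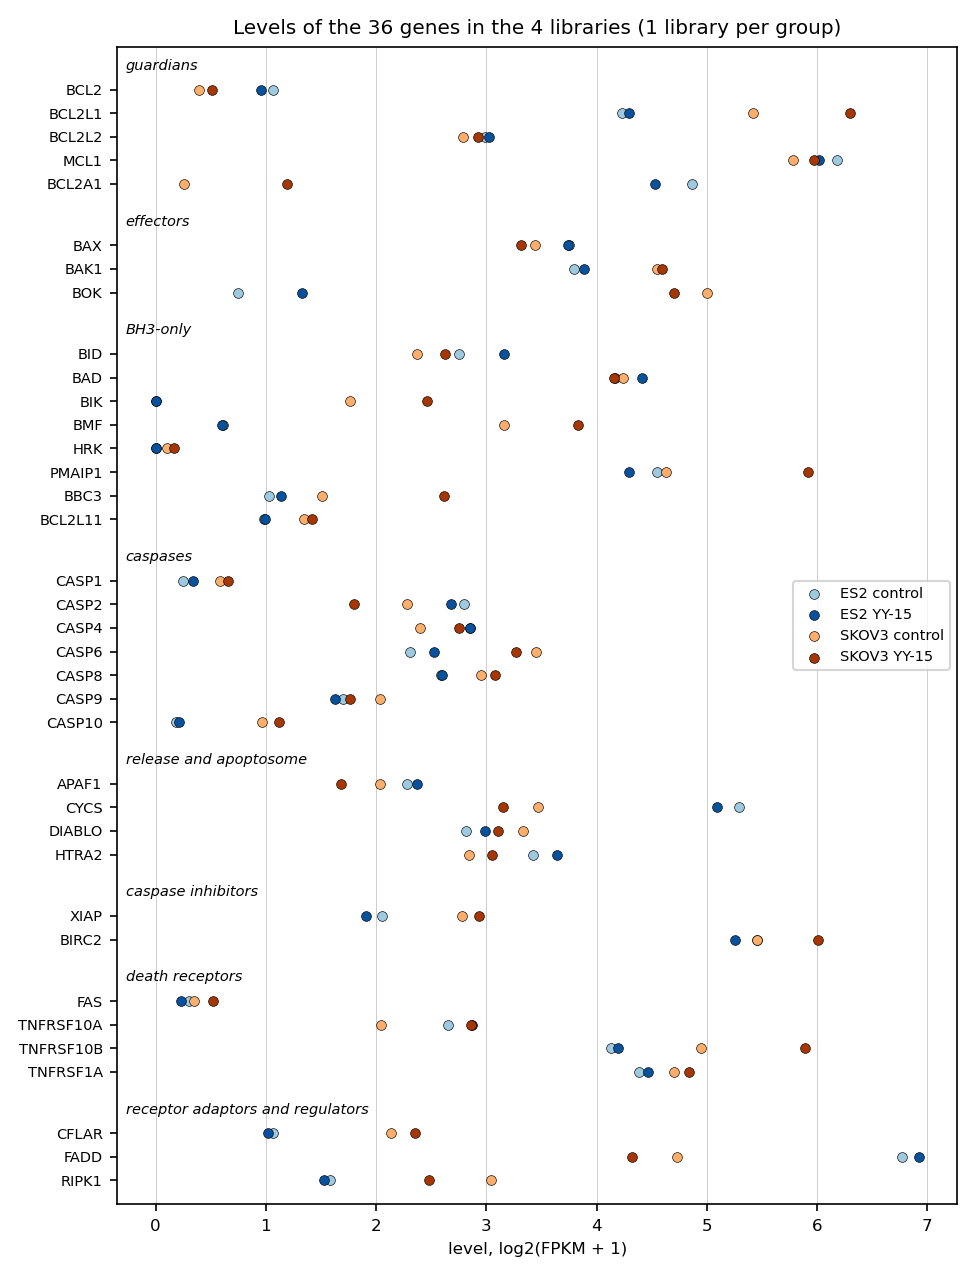
Level of each gene as log2(FPKM + 1) in the control and YY-15 libraries of ES2 and SKOV3, 1 point per library, by role. SKOV3 YY-15 lies furthest right for PMAIP1, BBC3, BCL2L1 and TNFRSF10B, while FADD and BCL2A1 are higher in both ES2 libraries than in both SKOV3 libraries.

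The ES2 libraries addressed the same question in the other line. None of the 29 members compared was 2-fold higher or lower, against 0.348% higher and 0.486% lower among all 12341 genes. At 1.5-fold, 1 member (3.45%) was higher against 1% of all genes, and none lower against 2.19%. That member was BOK, at 0.678 FPKM in control ES2 cells and 1.52 after YY-15 on 124 and 289 counts, a ratio of 0.59 [0.85 to 1.47]. It reached 1 FPKM through the YY-15 library alone. Next were BID (5.75 and 7.92 FPKM, 0.40), BCL2A1 (-0.34) and PMAIP1 (-0.25 [-0.34 to -0.19]). The median ratio was 0.04 over the members compared and -0.02 over all genes. BIK, BMF, HRK, BCL2L11, CASP1, CASP10 and FAS were under 1 FPKM in both ES2 libraries, BCL2L11 only just, at 0.977 and 0.994. Across ES2 genes the ratio was higher at higher GC content of the transcript (Spearman rho = 0.429 over 11981 other genes), against 0.0103 in SKOV3. With the trend on length and GC content removed, 6 of the 29 members changed sign, BBC3, BCL2L1, CASP4, CFLAR, TNFRSF1A and XIAP, with ratios from -0.14 to 0.11 as deposited.

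In the differences between the lines' ratios, SKOV3 minus ES2, PMAIP1 and BCL2A1 passed 2-fold, 2 of 33 members (6.06%) against 2.63% of all 14607 genes higher in SKOV3. None passed in the other direction, against 1.72%. PMAIP1 had a difference of 1.54, and 1.59 with a 95% Wald interval of 1.498 to 1.68 on the share ratios. BCL2A1 had 1.27, and 2.98 (2.18 to 3.77) on the share ratios, where its low SKOV3 counts weigh. With a pseudocount of 5 the BCL2A1 difference was under 2-fold. BBC3 was just short of the size for a call and passed it under several scalings. Its share ratio difference was 1.27 (0.97 to 1.58). TNFRSF10B (0.88), BCL2L1 (0.83), BIRC2 (0.76), BIK (0.69), BMF (0.68) and TNFRSF10A (0.60) followed. BIK and BMF reached 1 FPKM in SKOV3 only, and both are among the 9 members higher at 1.5-fold. BIK had 0 counts in both ES2 libraries, so its difference is its SKOV3 ratio alone. BMF was at 0.526 and 0.517 FPKM in ES2. At 1.5-fold, 9 members were higher (27.3% against 10.3% of all genes) and 1, BOK, lower (3.03% against 6.68%). At the other end stood BOK at -0.88, FADD at -0.56 and RIPK1 at -0.51. In 20 members the counting intervals of both lines excluded 0. Of these, 8 lay in the same direction in both lines, 7 were higher in SKOV3 and lower in ES2 with YY-15, and 5 the reverse. Among the 7906 genes of the whole table with both intervals beyond 0, the shares were 46.2%, 32.6% and 21.2%, against 40.0%, 35.0% and 25.0% of the 20 members, so opposite directions were about as common here as among all genes. The 7 were BCL2, MCL1, BCL2A1, PMAIP1, XIAP, BIRC2 and FAS, and the 5 were BOK, CASP6, APAF1, DIABLO and FADD. With the ES2 trend on length and GC content removed, the ES2 ratio of XIAP was 0.07 in place of -0.14, that of BIRC2 -0.02 in place of -0.20 and that of PMAIP1 -0.10 in place of -0.25. These are differences between single libraries, and the term of line by treatment could not be tested.

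The untreated lines were compared next, with libraries that the comparisons above also use. Of 32 members, 7 (21.9%) were at least 2-fold higher in SKOV3 against 16.2% of all 14024 genes, and 3 (9.38%) at least 2-fold lower against 12.5%. The share of members called was 31.3% in either direction against 28.7%, close to the background. BOK, BMF, BIK and BCL2L11 reached 1 FPKM through SKOV3 control alone, and BCL2A1 and BCL2 through ES2 control alone. The filter could admit each of these in 1 direction only. BCL2A1 was 141-fold higher in FPKM in ES2, at 28.2 against 0.200, a log2 ratio of -4.60 [-7.90 to -6.34]. BOK was 45.7-fold higher in FPKM in SKOV3, at 31.0 against 0.678, a log2 ratio of 4.25 [5.25 to 5.77]. These are the extremes among the members compared, a guardian gene high in ES2 and an effector relative high in SKOV3. At 1.5-fold, 10 members were higher in SKOV3 (31.3%) against 27.9% of all genes, and 5 lower (15.6%) against 23%.

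FADD was at 108 FPKM in ES2 control and 25.5 in SKOV3 control (-2.04 [-2.14 to -2.03]). CYCS was at 38.2 against 10.1 (-1.82 [-1.97 to -1.87]). Both were thus higher in ES2. Higher in untreated SKOV3 were BMF (0.526 in ES2 and 7.92 in SKOV3, 2.55), BIK (1.77), RIPK1 (2.00 and 7.26 FPKM, 1.46), BCL2L1 (1.19), CASP6 (3.95 and 9.90 FPKM, 1.14) and CFLAR (1.09 and 3.39 FPKM, 1.07). BIK had 164 counts in SKOV3 control and 0 in ES2 control, which allows up to 3 counts, so its library share was at least 51.8-fold higher in SKOV3. CFLAR was under 2-fold with the length and GC trend removed, and BIK, RIPK1, CASP6 and CFLAR did so with a pseudocount of 5. For 2 members the interval between the untreated lines included 0, BIRC2 (43.0 FPKM in both, -0.03 to 0.04) and BAD (-0.01 to 0.17).

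**Figure D4:**
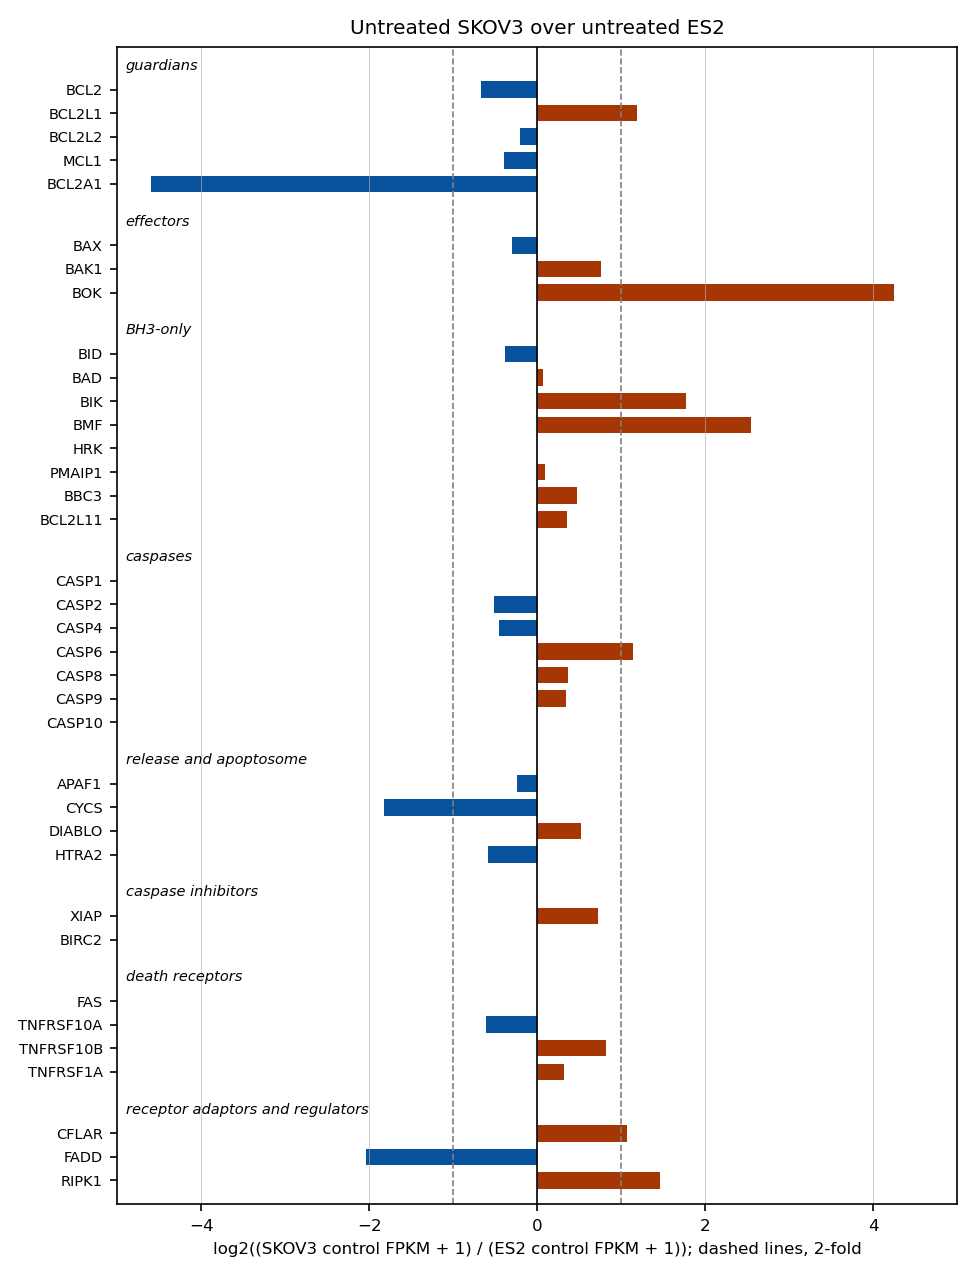
log2 ratio of SKOV3 control over ES2 control, as FPKM + 1, for each gene by role, with dashed lines at 2-fold. BOK (4.25) and BMF (2.55) extend furthest toward SKOV3 and BCL2A1 (-4.60) and FADD (-2.04) toward ES2, while HRK, CASP1, CASP10 and FAS were under 1 FPKM in both and have no bar.

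Summed by role, the 5 guardian genes came to 125 and 113 FPKM in ES2 and to 102 and 148 FPKM in SKOV3, control before YY-15 in each line. MCL1 held the largest part in 3 of the libraries, 57.0%, 56.7% and 53.0% in the same order. In SKOV3 YY-15 it held 41.7% and BCL2L1 52.7%. The 8 BH3-only genes summed to 47.6, 49.6, 59.7 and 106 FPKM, and PMAIP1 held 46.9%, 37.5%, 39.9% and 56.0% of that. The BH3-only sum was therefore 0.380, 0.440, 0.584 and 0.717 of the guardian sum. PMAIP1 alone stood at 0.313, 0.291, 0.440 and 0.963 of the level of MCL1, its main binding partner. These fractions rest on the deposited lengths, and that of MCL1 is 1.51 times its GENCODE 29 exon length, against 1.04 for PMAIP1. On the exon length, PMAIP1 was at 61.8 and MCL1 at 93.4 FPKM in SKOV3 YY-15, further apart than as deposited. The guardian sum, and the BH3-only fraction of it, depend on the MCL1 length too. The 3 effector genes summed to 26.0, 27.7, 63.3 and 57.2 FPKM, with BOK holding 2.61% in ES2 control and 49.0% in SKOV3 control. The 4 death receptor genes summed to 41.8, 44.9, 58.4 and 92.8 FPKM. In that sum TNFRSF10B was 51.2% in control SKOV3 cells and 63.1% after YY-15. These are transcript levels and say nothing of protein amounts.

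**Figure D5:**
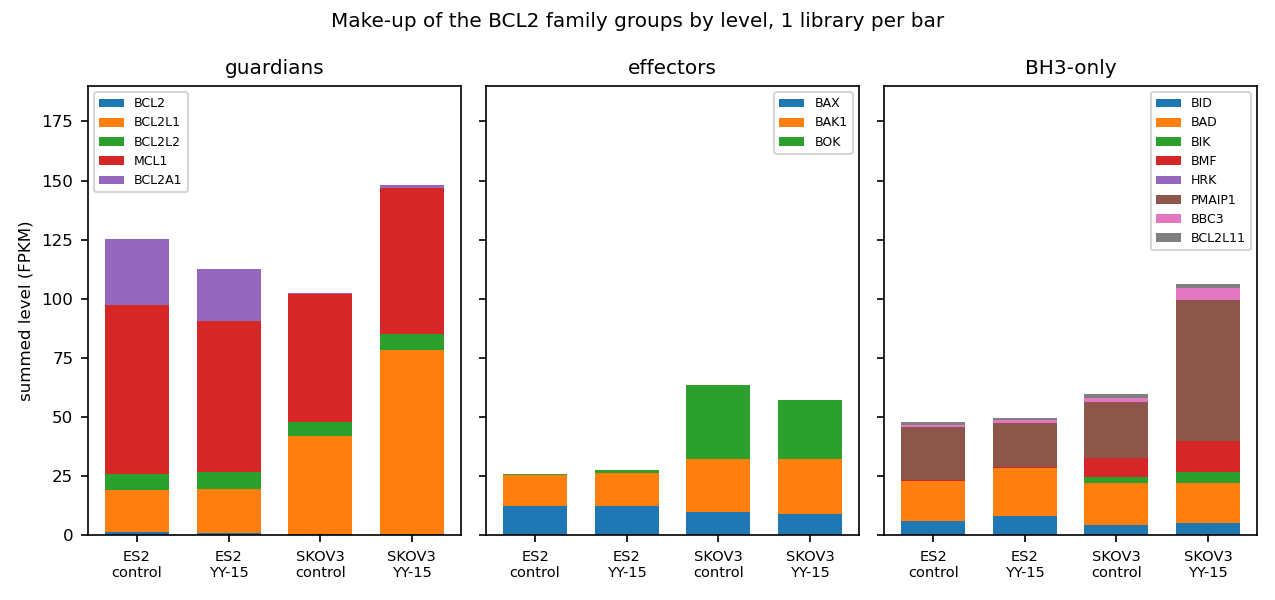
Summed FPKM of the guardian, effector and BH3-only genes in each library, with 1 bar per library split by gene. The guardian bar of SKOV3 YY-15 (148) is mostly BCL2L1 and MCL1, and its BH3-only bar (106) is mostly PMAIP1, while BCL2A1 is visible in the ES2 bars and BOK mainly in the SKOV3 bars.

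Other genes of the same pathways came from 6 further lists, 61 genes in the table, of which 46 were compared in SKOV3 and 41 in ES2. In SKOV3, 4 of the 46 were at least 2-fold higher (against 1.66% of all genes) and none was 2-fold lower (against 1.31%). The median ratio was 0.07. These counts rest on the pseudocount of 1. Without it, BIRC5 (37.3 and 18.5 FPKM) and BCL2L12 (10.94 and 5.463) were just over 2-fold lower in SKOV3. TNF (4.50 and 9.45 FPKM) and LTB (0.398 and 1.36) were over 2-fold higher. In ES2, 0 of the 41 were 2-fold different, against 0.348% higher and 0.486% lower among all genes. Among 8 known inducers of BH3-only genes compared in SKOV3, 3 were 2-fold higher. They were DDIT3, which encodes CHOP (5.12 and 46.0 FPKM, 2.94 [3.02 to 3.30]), ATF4 (84.3 and 190 FPKM, 1.16 [1.15 to 1.20]) and ATF3 (0.844 and 6.87 FPKM, 2.09 [2.83 to 3.22]). The same genes in ES2 were at 4.51 and 5.03, 97.2 and 103, and 0.365 and 0.413 FPKM. TNFAIP3, an NF-kB feedback inhibitor that edits ubiquitin at the TNF receptor, was the remaining one, at 5.73 and 13.1 FPKM in SKOV3 (1.07 [1.13 to 1.27]). For the lists where no ratio reached 1 in size, the gene furthest from 0 in SKOV3 is given. These genes were BIRC5, which encodes survivin (37.3 and 18.5 FPKM, -0.97), TNF (4.50 and 9.45 FPKM, 0.92), BCL2L12 (-0.89) and GSDME, a pore-forming gasdermin (0.66). TNF had 0 counts in both ES2 libraries.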

How the data were processed

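Poly(A)-selected RNA of 4 libraries, 1 per group, was sequenced from both ends. StringTie 2.1.6, edgeR, HISAT2 2.2.1, DESeq2 and cutadapt 1.9 are listed, without roles, per the submitters' processing notes. Those notes name a mouse build, mm10, but the table lists human genes. Of its 38558 identifiers, 35576 were in GENCODE 29 (GRCh38) and 99.9% of these overlapped the same gene there, all 36 members among them, so coordinates are given as GRCh38. The authors deposited FPKM and counts per gene, per the file headers. The deposited counts are treated as estimated counts, since 210 to 229 genes per library held a single count but an FPKM that was nonzero and below 0.001. No deposited value column was left unused, and columns were matched to samples by line and by control or dose. Values of members that share their place with another gene of substantial counts are given as uncertain.

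Computed from these were log2 ratios with a pseudocount of 1 over genes at 1 FPKM or more in at least 1 library compared, Clopper-Pearson and Wald intervals from the counts, and sums by role. No model of the groups was fitted and no test made, since each group holds 1 library. PCR reads without molecular identifiers are not independent molecules, so intervals and the limit of 3 counts cover counting error only. The members, the lists and the naming rule were chosen with earlier results of these data known. All 36 members are named, in full where a treatment ratio reached 0.5 in size or the untreated lines differed 2-fold, and of the other lists the genes 2-fold different in a treated line or, failing that, the one furthest from 0 in SKOV3. Some genes of the lists are not reported here. BCL2L10, CASP14, ZBP1 and CD3E from the lists were not analysed here. Promoters were those of RefSeq, GRCh38.p14. The calculation was tested on simulated counts. Alternatives tried were a pseudocount of 0.1 or 5, a filter of 5 FPKM or none, rescaling to a sum of 1000000, centring on the median, scaled counts, removal of the trend on length and GC content (local regression, span 0.3), sizes of 1.5-fold and 3-fold and, added after the data were seen, FPKM on the exon length of GENCODE 29. Python 3.11.15, numpy 2.4.6, pandas 2.3.3, scipy 1.17.1, statsmodels 0.14.6 and matplotlib 3.10.9 were used.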

Additional observations from a re-analysis of the deposited data

Results flagged for a closer look

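PMAIP1 and BCL2A1 differed in opposite directions in the 2 lines, beyond the counting error of each line, and the difference between their log2 ratios passed 2-fold. PMAIP1 was higher with YY-15 in SKOV3 (1.28) and lower in ES2 (-0.25), a difference of 1.54. BCL2A1 was higher in SKOV3 (0.93) and lower in ES2 (-0.34), a difference of 1.27, on 15 and 86 counts in SKOV3. With a pseudocount of 5 the BCL2A1 difference was under 2-fold. With the ES2 trend on length and GC content removed, the ES2 ratios were -0.10 for PMAIP1 and -0.23 for BCL2A1. With 1 library per group, neither difference was tested.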

How the results depend on the processing

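No paired analysis was made, since no test was made and each group holds 1 library. A fit with line and treatment as additive factors, which would leave 1 residual degree of freedom, was not run. No member that was 2-fold different in a comparison changed sign under any alternative run. The SKOV3 count of 2 members higher became 1 with a pseudocount of 5 (without BBC3), 3 with one of 0.1 (with BCL2A1), 5 after rescaling to equal FPKM sums (with BCL2A1, TNFRSF10A and TNFRSF10B), 8 at 1.5-fold and 0 at 3-fold. The ES2 count of 0 higher became 1 with a pseudocount of 0.1 and at 1.5-fold, BOK in both. For the difference between the lines, the count of 2 higher became 1 with a pseudocount of 5 (without BCL2A1), 9 at 1.5-fold and 0 at 3-fold. It became 3, with BBC3, under 5 settings (pseudocount of 0.1, rescaling, scaled counts, trend removed and GENCODE 29 length). The count of 0 lower became 1 with a pseudocount of 0.1, after rescaling, with scaled counts and at 1.5-fold. Between the untreated lines, the 7 higher became 3 with a pseudocount of 5 and at 3-fold, and 5 at 5 FPKM or more. They became 6 with the trend removed, and 8 after rescaling and with scaled counts. The 3 lower became 4, with BCL2, with a pseudocount of 0.1, after rescaling and with scaled counts. At 1.5-fold, 5 were lower and 10 higher. The untreated median of 0.21 became 0.10 with a pseudocount of 5, 0.073 at 5 FPKM or more, 0.44 after rescaling and 0.34 with scaled counts. Rescaling moved the median of all genes from 0.07 to 0.21 in that comparison and from 0.06 to 0.17 in the difference between the lines, so part of each move is common to all genes. The ES2 member median was -0.01 after rescaling, against 0.04. The causes of the other moves were not tested. Counts were under 300 in both libraries of a line for BCL2A1, BIK, HRK and CASP1 in SKOV3 and for BOK, BIK, BMF, HRK, BBC3, CASP1 and CASP10 in ES2, where depth limits the ratios.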

Other observations

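The length that the deposited FPKM and counts imply was within 1.5 times the merged exon length of GENCODE 29 for 33 of the 36 members, with a median of 1.06 times. The 3 beyond it were FAS (31456 nt implied against 4253 nt, 7.40 times), RIPK1 (12935 against 4231 nt, 3.06 times) and MCL1 (6589 against 4371 nt, 1.51 times). The deposited FAS entry spans 88953813 to 89029605 on chromosome 10 and the GENCODE 29 gene 88990582 to 89015785. On the GENCODE 29 length, FAS was at 1.76 and 1.32 FPKM in ES2 and at 2.04 and 3.21 in SKOV3, control first, above the filter of 1 that it missed as deposited, and MCL1 was at 81.7 and 93.4 FPKM in SKOV3. On this scale BCL2L1 was at 56.0 and 105 FPKM, so it again stood below MCL1 in SKOV3 control and above it in SKOV3 YY-15. No count of 2-fold members in either treatment comparison differed on this scale.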
